A study of Sus scrofa with 24 samples.

Results

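The let-7 family, with its close relative miR-98, was examined in cultured pig adipocytes from 2 fat depots. The members were every entry of the small RNA table whose name begins with ssc-let-7, together with ssc-miR-98, whichever arm of the precursor they come from. This gave 11 of 1587 entries, of which 8 are the guide strand (5p) and 3 are the opposite arm (let-7d-3p, let-7f-3p and let-7i-3p). A miRNA silences mRNAs that carry a match to its seed, the bases near its 5′ end, so miRNAs with one seed share most of their predicted targets. The let-7 family is abundant in differentiated mammalian cells and scarce in embryonic stem cells, where the protein LIN28 blocks its maturation. Its known targets include HMGA2, IGF2BP genes and components of insulin and IGF signaling, and let-7 has been linked to the halt of precursor growth when fat cells differentiate.

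The cells were primary preadipocytes of 6-day-old Yorkshire piglets, stripped from the back subcutaneous fat (BF) or isolated from the longissimus dorsi muscle (IMF, intramuscular). They were untreated on day 0. An induction medium with 3-isobutyl-1-methylxanthine, dexamethasone and insulin followed up to day 2, a medium with insulin alone up to day 4, and growth medium up to day 8. Days 0, 2, 4 and 8 of each source make 8 groups (BF-0d to IMF-8d) of 3 libraries, 24 in all. The 2 sources therefore differ in tissue and in collagenase digestion together. Which library came from which piglet is not stated, so p-values measure only the spread between these libraries.

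The 8 guide strands are shown first because the members differ by so few bases that the identity of each entry rests on them. The sequences are those of the miRNA list of the study, written as DNA from 5′ to 3′, with the seed (bases 2 to 8) in capitals.
let-7a: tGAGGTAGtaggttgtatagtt
let-7c: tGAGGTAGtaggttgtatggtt
let-7d-5p: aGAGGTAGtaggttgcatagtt
let-7e: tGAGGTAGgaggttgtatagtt
let-7f-5p: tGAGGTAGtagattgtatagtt
let-7g: tGAGGTAGtagtttgtacagtt
let-7i-5p: tGAGGTAGtagtttgtgct
miR-98: tGAGGTAGtaagttgtattgtt

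All 8 carried the same seed, and none of the other entries among the 958 with a listed sequence carried it. Counted from the 5′ end, with the base of let-7a first, let-7c differed from let-7a by A19G only, let-7e by T9G only and let-7f-5p by G12A only. The differences were T1A and T16C in let-7d-5p, G12T and T18C in let-7g, and G11A and A19T in miR-98. The let-7i-5p entry is listed with 19 bases, and over those it differed from let-7a by G12T, A17G, T18C and A19T. It is separated from the first 19 bases of let-7g by A17G and A19T alone. In the genome, 3 more bases (capitals) follow it at its precursor.
let-7i-5p in the genome: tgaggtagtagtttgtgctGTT
The opposite arms do not share the seed. Both that passed the main test described below are shown with their own bases 2 to 8 in capitals. The remaining one, let-7f-3p, passed only under other settings.
let-7d-3p: cTATACGAcctgctgcctttct
let-7i-3p: cTGCGCAAgctactgccttgct

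The members lie in 10 annotated precursors of the pig genome (RefSeq annotation of Sscrofa11.1, the build the authors mapped to). MIRLET7A-2 (chr3:43465667-43465758), MIRLET7F-2 (chr3:43466034-43466130) and MIRLET7D (chr3:43468501-43468596) form a cluster on the plus strand, outside any other annotated gene, with 276 and 2371 nt between neighbours. MIRLET7A-1 (chr9:49152586-49152665, minus strand) lies 5244 nt from MIR100 and 43072 nt from MIR125B-1. MIRLET7E (chr6:58332042-58332121, minus strand) is flanked by MIR99B at 90 nt and MIR125A at 397 nt. MIRLET7C (chr13:181303209-181303302, plus strand) is in an intron of LOC106508546, 647 nt from MIR99A. MIR98 (chrX:46302381-46302460) and MIRLET7F-1 (chrX:46303245-46303327), both on the minus strand, lie 785 nt apart in introns of HUWE1, a ubiquitin ligase gene. MIRLET7G (chr13:34406140-34406219, minus strand) is in an intron of WDR82. MIRLET7I (chr5:27252802-27252886, plus strand) stands alone, 4139975 nt from the nearest annotated miRNA gene.

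The reads of let-7a cannot be assigned to one locus. Its mature sequence has 3 exact copies in the genome, in MIRLET7A-1, in MIRLET7A-2 and at chr5:3397105-3397126 (minus strand) in an exon of LOC110260611, where no miRNA gene is annotated. Mature let-7f-5p has 2 copies, in MIRLET7F-1 and MIRLET7F-2. The 19 listed bases of let-7i-5p occur in MIRLET7I and once more at chr6:41796664-41796682 (minus strand), outside any annotated gene. Each of the other members has 1 exact copy.

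The libraries held 4954845 to 16863560 reads on miRNAs. Values are given in TPM, the study's term for reads scaled to one common total of miRNA reads per library (RPM), not divided by length, and fold changes were tested on log2(TPM + 1). One miRNA, ssc-miR-21-5p, took 27.9% to 60.5% of a library's reads and so weighs on the scale of all other values. Of the 1587 entries, 430 had a mean of at least 1 TPM and were tested, and all 11 members were among them. A DE-miRNA is an entry with a limma FDR (Benjamini-Hochberg adjusted p) under 0.05 and a fold change above 1.5. The lowest mean correlation of a library with its own group was 0.978, a measure led by the abundant entries. BF-8d replicate 1 had 27.9% of its reads on ssc-miR-21-5p against 38.3% and 40.3% in its group. The 7 blood miRNAs looked at summed to 0.662 to 8.08 TPM. The skeletal muscle miRNAs, 7 of the 8 looked at, summed to 475 to 2362 TPM in BF and 696 to 1739 TPM in IMF, nearly all of it ssc-miR-1. Of the others, ssc-miR-133a-3p (7.53 to 30.2 TPM) and ssc-miR-499-5p (8.57 to 23.2 TPM) were present in every library, while ssc-miR-206 did not exceed 0.934 TPM and ssc-miR-133b did not exceed 0.987 TPM, and both of these were at 0 in at least 1 library. No miRNA defines an adipocyte, so the cell type of the labels could not be checked directly.

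One member dominated the family. The entry let-7i-5p averaged 55357 TPM over the 24 libraries and was the 4th most abundant of all 1587 entries, ranging from 36744 to 92327 TPM. Next came let-7f-5p at 5443 TPM (3401 to 8607) and let-7g at 5199 TPM (3521 to 7862), whose ranges overlapped almost wholly. They were followed by let-7a at 1874 TPM (1026 to 2975) and let-7c at 1377 TPM (799 to 2264), again with overlapping ranges, although let-7a exceeded let-7c in each of the 24 libraries by 1.13 to 1.81 times. Then came let-7e at 746 TPM, miR-98 at 211 TPM (136 to 307) and let-7d-5p at 151 TPM (83.6 to 234), the last pair overlapping. The opposite arms were lowest, with let-7d-3p at 60.5 TPM, let-7f-3p at 10.8 TPM and let-7i-3p at 3.04 TPM, the last from only 7 to 78 reads per library. How the authors counted reads that fit more than one entry is not given in the sources used here, and the part of the shorter reference of let-7i-5p in its level was not tested.

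**Figure D1:**
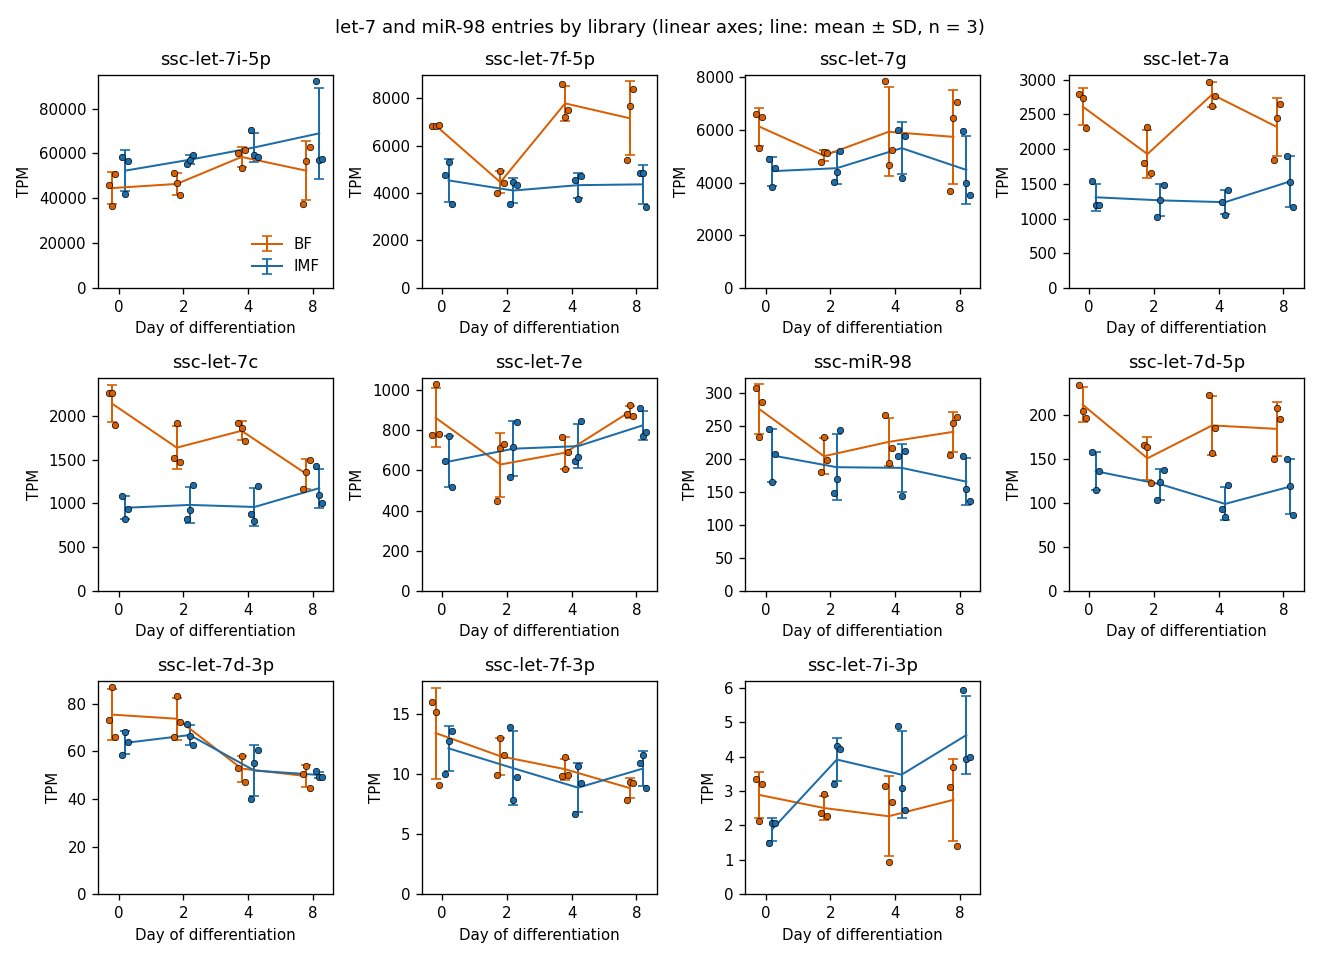
TPM of the 11 entries (linear axes from 0) by day of differentiation in BF (orange) and IMF (blue), with each library as a point and the line through the mean ± SD of 3 libraries. Levels of let-7a and let-7c in BF-0d, BF-2d and BF-4d lay above those of IMF on the same day, while let-7i-5p, the most abundant member, overlapped on days 0, 4 and 8.

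The summed guide strands were compared first, as a share of each library's miRNA reads. They made up 6.36% ± 0.738 (SD, n = 3) of the reads in BF-0d, 6.04% ± 0.463 in BF-2d, 7.79% ± 0.640 in BF-4d and 7.02% ± 1.71 in BF-8d. The shares in IMF-0d, IMF-2d, IMF-4d and IMF-8d were 6.45% ± 0.923, 6.91% ± 0.353, 7.55% ± 0.732 and 8.16% ± 2.26. By this measure BF and IMF overlapped on days 0, 4 and 8, and on day 2 every IMF library was above every BF library. The picture depended on the scaling. With median-of-ratios scaling IMF lay wholly above BF on days 2, 4 and 8, with sums of 60434 to 74354 TPM in BF-4d against 81974 to 100146 TPM in IMF-4d, and 45925 to 67967 TPM in BF-8d against 74660 to 102552 TPM in IMF-8d. With ssc-miR-21-5p left out of the total, the sources overlapped on all 4 days. The wide SD of IMF-8d came from 1 library at 10.8%, against 6.95% and 6.77% in the others, and that of BF-8d from 1 library at 5.09%, against 7.59% and 8.37%.

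The make-up of the family also differed between the sources. Of the summed guide strands, let-7i-5p made up 69.8% ± 3.28 in BF-0d and 80.8% ± 3.18 in IMF-0d, and 76.7% ± 2.70 in BF-2d and 82.8% ± 1.47 in IMF-2d (SD, n = 3 each). The shares were 75.1% ± 2.18 in BF-4d and 83.0% ± 2.34 in IMF-4d, and 74.5% ± 0.594 in BF-8d and 84.3% ± 1.97 in IMF-8d. On each day the lowest IMF library was above the highest BF library. A share within the family does not depend on the library total or on ssc-miR-21-5p.

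The ratio of let-7i-5p to let-7a showed the same. In the 12 BF libraries let-7i-5p exceeded let-7a by 13.4 to 28.3 times, and in the 12 IMF libraries by 35.1 to 56.6 times, with no overlap on any day or across days. The mean ratio was 17.3 ± 4.36 in BF-0d against 40.2 ± 6.59 in IMF-0d, and 22.3 ± 1.77 in BF-8d against 45.0 ± 6.77 in IMF-8d (SD, n = 3). Of the 28 pairs of guide strands, 5 (17.9%) had ratios that did not overlap between BF and IMF, in the same direction on all 4 days, against 13.8% of all 92235 pairs of tested entries. These 5 were let-7i-5p over let-7a, let-7c, let-7d-5p and let-7f-5p, and let-7e over let-7a. The share is near that of all entries, so unequal ratios of this kind are common in the table.

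**Figure D2:**
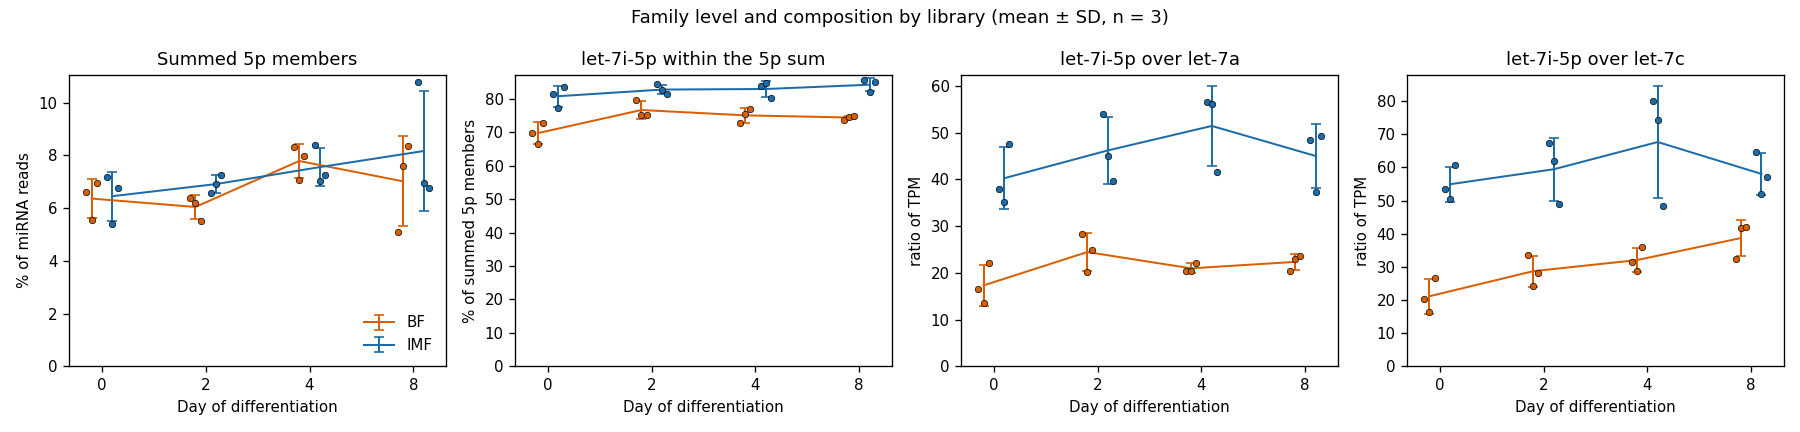
Summed guide strands as a percentage of miRNA reads, the percentage of let-7i-5p within that sum, and the ratios of let-7i-5p to let-7a and to let-7c (linear axes from 0), by day in BF (orange) and IMF (blue), with each library as a point and mean ± SD (n = 3). In share of reads the sum overlapped between sources on days 0, 4 and 8 (with median-of-ratios scaling on day 0 only), while the 3 measures of make-up lay higher in IMF on each of the 4 days.

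The comparison of BF with IMF on the same day asks which members differ between the depots before and during differentiation. In TPM the DE-miRNAs were let-7a, let-7c, let-7d-5p and let-7f-5p, each lower in IMF, and let-7i-5p did not pass the test on any day. The median log2 fold change of all 430 entries was itself -0.13, -0.14, -0.34 and -0.28 (IMF minus BF) on days 0, 2, 4 and 8. The part of a shift of the scale in the differences was not tested. Values after median-of-ratios scaling, which centres the libraries on their typical entry, are therefore given beside the TPM values. That scaling called 23.5%, 14.0%, 27.9% and 34.2% of all entries on the 4 days, in either direction. It turned the sign of 9 of the 44 member differences, none of them a DE-miRNA in TPM.

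On day 0, before induction, 4 of the 11 members were DE-miRNAs and all were lower in IMF-0d, against 15.8% of all tested entries that were lower and 29.3% in either direction. The level of let-7a was 2802, 2735 and 2303 TPM in BF-0d and 1535, 1193 and 1190 TPM in IMF-0d. Every BF library was above every IMF library. The mean was 2.00-fold higher in BF-0d, a log2 fold change of -1.01 (SE 0.14, adjusted p = 0.00499). The level of let-7c was 2264, 2261 and 1895 TPM in BF-0d against 1090, 828 and 933 TPM in IMF-0d. Here too the groups lay apart, by 2.25-fold (log2 -1.17, SE 0.13, adjusted p = 0.00264). Median-of-ratios scaling gave -0.84 (adjusted p = 0.00431) for let-7a and -1.01 (adjusted p = 0.00254) for let-7c, and both calls held under all 15 alternative settings. In the same comparison let-7d-5p was 234, 204 and 196 TPM in BF-0d and 157, 115 and 136 TPM in IMF-0d (log2 -0.64, SE 0.14, adjusted p = 0.0213). For let-7f-5p the values were 6834, 6839 and 6868 TPM in BF-0d and 4742, 5318 and 3526 TPM in IMF-0d (log2 -0.62, SE 0.16, adjusted p = 0.0358). Both lay wholly lower in IMF. These 2 calls were lost with median-of-ratios scaling (-0.48 with adjusted p = 0.0173 but under the 1.5-fold limit, and -0.45 with adjusted p = 0.132), and on leaving out single libraries. For let-7d-5p this was so without any 1 library other than IMF-0d replicate 1 (adjusted p = 0.0512 to 0.0719, or log2 -0.52 without IMF-0d replicate 2). For let-7f-5p it was so without any 1 library other than IMF-0d replicate 2 (adjusted p = 0.0742 to 0.104, or log2 -0.45 without IMF-0d replicate 3). In all, 7 of the 11 members did not overlap between BF-0d and IMF-0d, all lower in IMF-0d. Of the tested entries 29.5% lay lower without overlap, and 47.7% in either direction.

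On day 2, after the induction medium, 1 member was a DE-miRNA, against 6.51% of entries lower in IMF and 12.3% in either direction. The level of let-7c was 1521, 1921 and 1468 TPM in BF-2d and 821, 920 and 1209 TPM in IMF-2d, with no overlap (log2 -0.74, SE 0.18, adjusted p = 0.0475). This call was lost on leaving out any 1 library other than BF-2d replicate 3, with adjusted p of 0.0645 to 0.148, and with median-of-ratios scaling (-0.60, adjusted p = 0.0563). That scaling and edgeR, which called 15.8% of entries, each called let-7i-3p higher in IMF-2d instead (0.59, adjusted p = 0.0447, and 0.81, adjusted p = 0.0290). For let-7a the values were 1806, 2319 and 1662 TPM in BF-2d and 1026, 1271 and 1489 TPM in IMF-2d. These also lay apart, but the test was not passed (log2 -0.61, SE 0.19, adjusted p = 0.0891). In contrast, let-7i-5p was higher in every IMF-2d library (55321, 57119 and 59154 TPM) than in any BF-2d library (51078, 46631 and 41473 TPM), at log2 0.31 (SE 0.10, adjusted p = 0.0932). In all, 4 of the 11 members did not overlap, against 33.3% of the tested entries.

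On day 4 the difference was widest for let-7a. Its level was 2975, 2620 and 2772 TPM in BF-4d and 1243, 1057 and 1406 TPM in IMF-4d. The BF libraries thus lay 2.26-fold higher on average, with no overlap (log2 -1.18, SE 0.20, adjusted p = 0.000874). With median-of-ratios scaling the log2 fold change was -0.75 (adjusted p = 0.00974), and this call held under all 15 alternatives. The level of let-7c was 1923, 1858 and 1710 TPM against 877, 799 and 1204 TPM (log2 -0.95, SE 0.22, adjusted p = 0.00458). Likewise, let-7d-5p was 222, 156 and 185 TPM against 92.9, 83.6 and 120 TPM (log2 -0.92, SE 0.24, adjusted p = 0.00961), and let-7f-5p was 8607, 7218 and 7502 TPM against 4538, 3734 and 4716 TPM (log2 -0.85, SE 0.19, adjusted p = 0.00343). In each of the 3 the groups lay apart. With median-of-ratios scaling they stood at -0.52, -0.50 and -0.42 and none passed (adjusted p = 0.0604, 0.112 and 0.0900). These 4 DE-miRNAs of 11 compare with 28.8% of entries lower in IMF-4d and 36.3% in either direction. The 4 members that did not overlap, all lower, compare with 41.2% of entries lower and 50.2% in either direction.

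On day 8, let-7a, let-7d-5p and let-7f-5p were DE-miRNAs, 3 of 11 members against 25.1% of entries lower in IMF and 37.2% in either direction. The level of let-7a was 1849, 2454 and 2656 TPM in BF-8d and 1906, 1532 and 1166 TPM in IMF-8d, so that the groups overlapped (log2 -0.61, SE 0.21, adjusted p = 0.0314), though not without BF-8d replicate 1 or IMF-8d replicate 1. For let-7d-5p it was 150, 207 and 195 TPM against 149, 119 and 86.6 TPM, just apart (log2 -0.65, SE 0.21, adjusted p = 0.0240). For let-7f-5p it was 5384, 7679 and 8380 TPM against 4844, 4842 and 3401 TPM, also apart (log2 -0.71, SE 0.22, adjusted p = 0.0180). None of the 3 passed with median-of-ratios scaling (-0.28, -0.33 and -0.38, adjusted p = 0.215, 0.156 and 0.133). All 3 were lost without BF-8d replicate 2 (adjusted p = 0.117, 0.105 and 0.0843), BF-8d replicate 3 (0.139, 0.0909 and 0.0915) or IMF-8d replicate 3 (0.158, 0.127 and 0.101), and let-7a also without IMF-8d replicate 2 (0.0691). Without BF-8d replicate 1, let-7g (-0.63, adjusted p = 0.0145) and miR-98 (-0.66, adjusted p = 0.00446) passed as lower in IMF too, and let-7i-3p passed as higher (0.72, adjusted p = 0.0476). Without BF-8d replicate 2, let-7i-3p alone passed, as higher (0.82, adjusted p = 0.0499). The level of let-7i-5p was 37579, 56547 and 62789 TPM in BF-8d and 92327, 57013 and 57597 TPM in IMF-8d (log2 0.39, SE 0.27, adjusted p = 0.266). Median-of-ratios scaling put it at 0.72 (adjusted p = 0.0308), past the threshold, and let-7i-3p at 0.85 (adjusted p = 0.0229). On this day it thus depended on the method and on single libraries which members were called, lower or higher. Each member called in any of these settings kept its sign in all of them. Median-of-ratios scaling and DESeq2 called 2 members higher in IMF-8d (let-7i-5p and let-7i-3p), edgeR called 3 (with let-7f-3p), and none of these called a member lower, where DESeq2 called 33.3% and edgeR 35.1% of entries. For let-7c the difference was -0.19 (adjusted p = 0.393) in TPM and 0.13 with median-of-ratios scaling, so its direction on day 8 depended on the scaling. In all, 4 of the 11 members did not overlap, against 51.2% of the tested entries.

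Among the remaining guide strands and opposite arms, the log2 fold changes of let-7e, let-7g, miR-98, let-7d-3p and let-7f-3p ran from -0.55 (miR-98, day 8) to 0.22 (let-7f-3p, day 8), and none of them was a DE-miRNA on any day. Of these 20 differences, 7 had the opposite sign after median-of-ratios scaling, on day 4 those of let-7g, miR-98, let-7d-3p and let-7f-3p. For miR-98 on day 8 the FDR passed (adjusted p = 0.0292) but the change stayed under 1.5-fold. It was called lower in IMF-8d under 2 of the 15 alternative settings. The summed endothelial miRNAs, nearly all ssc-miR-126-3p, lay apart between the sources on days 4 and 8 and overlapped on days 0 and 2. By itself ssc-miR-126-5p lay apart on day 0, at 1.01 to 1.36 TPM in BF-0d and 0.208 to 0.844 TPM in IMF-0d. It overlapped on day 4, at 0.718 to 2.93 TPM in BF-4d and 0.355 to 0.757 TPM in IMF-4d. The 2 looked at, ssc-miR-126-3p and ssc-miR-126-5p, summed to 38.1 to 71.2 TPM in BF-0d and 18.2 to 40.4 TPM in IMF-0d, and to 26.4 to 53.5 TPM in BF-2d and 24.5 to 27.4 TPM in IMF-2d. The sums were 53.6 to 86.4 TPM in BF-4d and 18.7 to 30.9 TPM in IMF-4d, and 51.2 to 90.9 TPM in BF-8d and 24.6 to 34.8 TPM in IMF-8d. The muscle sums, nearly all ssc-miR-1, lay apart on day 2, at 475 to 544 TPM in BF-2d and 814 to 1065 TPM in IMF-2d, and in the opposite direction on day 4, at 1043 to 1526 TPM in BF-4d and 696 to 985 TPM in IMF-4d. On day 2 ssc-miR-499-5p lay apart in the other direction from the sum, at 14.1 to 19.4 TPM in BF-2d and 11.3 to 13.2 TPM in IMF-2d. On days 0 and 8 the muscle sums overlapped. On day 0 ssc-miR-133a-3p lay higher in IMF-0d (10.9 to 18.6 TPM) than in BF-0d (7.53 to 7.82 TPM). So did ssc-miR-133a-5p (0.727 to 0.984 TPM against 0.0663 to 0.542 TPM). Lower in IMF-0d was ssc-miR-499-5p (11.8 to 15.2 TPM against 18.4 to 23.2 TPM). On day 8 ssc-miR-133a-3p lay higher in IMF-8d (24 to 28.3 TPM) than in BF-8d (21.1 to 23.1 TPM). There ssc-miR-133a-5p lay lower (0.201 to 0.384 TPM against 0.390 to 1.41 TPM). The blood sums lay apart on day 2 (1.86 to 2.52 TPM in BF-2d, 1.31 to 1.70 TPM in IMF-2d). They also did on day 4 (2.81 to 6.37 TPM in BF-4d, 0.662 to 1.60 TPM in IMF-4d). On day 8 they lay apart in the opposite direction (3.71 to 4.44 TPM in BF-8d, 6.68 to 8.08 TPM in IMF-8d). The part of any of these lists in the differences of let-7a and the other members was not tested.

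**Figure D3:**
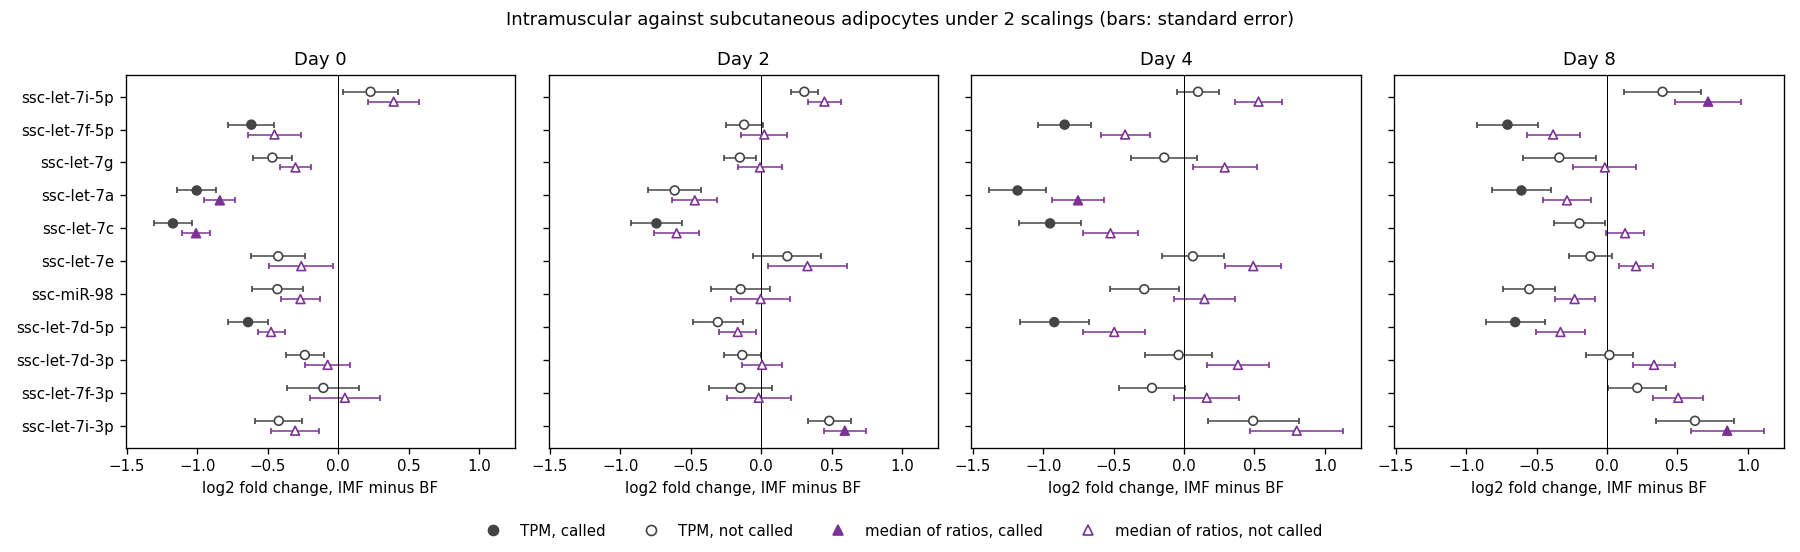
Log2 fold change of each member, IMF minus BF, on days 0, 2, 4 and 8, in TPM (circles) and after median-of-ratios scaling (triangles), with standard errors and with filled symbols for DE-miRNAs. In TPM the filled symbols are all negative and belong to let-7a, let-7c, let-7d-5p and let-7f-5p. With median-of-ratios scaling let-7a and let-7c on day 0 and let-7a on day 4 stay filled, let-7i-3p on days 2 and 8 and let-7i-5p on day 8 become filled with positive values, and let-7c on day 8 turns from -0.19 to 0.13.

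The comparisons between days ask how the members change as the cells differentiate. Within BF, let-7f-5p was the member that moved in the early steps. It stood at 6834, 6839 and 6868 TPM in BF-0d and at 4002, 4928 and 4427 TPM in BF-2d, a clear gap (log2 -0.63, SE 0.11, adjusted p = 0.0281). It then rose to 8607, 7218 and 7502 TPM in BF-4d, again with no overlap with BF-2d (log2 0.81, SE 0.16, adjusted p = 0.0150). It was the one DE-miRNA among the members in both steps, against 4.19% of entries called in BF-0d vs. BF-2d and 6.05% in BF-2d vs. BF-4d. Both calls were lost with median-of-ratios scaling (-0.61, adjusted p = 0.0555, and 0.69, adjusted p = 0.0586), which called 8.14% and 5.35% of entries. Leaving out 1 library lost the call of the fall in 5 of 6 cases, all except BF-2d replicate 3 (adjusted p = 0.0545 to 0.158), while the fold change stayed between -0.70 and -0.55 over the 6 cases. The call of the rise was lost without BF-2d replicate 1 or 3 or BF-4d replicate 2 or 3 (adjusted p = 0.0532 to 0.0711), with a fold change of 0.73 to 0.88 over the 6 cases. The 2 steps share the BF-2d libraries. The summed muscle miRNAs went the same way through ssc-miR-1, which makes up nearly all of the sum, at 819 to 1013 TPM in BF-0d, 475 to 544 TPM in BF-2d and 1043 to 1526 TPM in BF-4d. Not all of the list did so. The level of ssc-miR-133a-3p was higher in BF-2d (8.75 to 10.7 TPM) than in BF-0d (7.53 to 7.82 TPM), and the mean of ssc-miR-499-5p was 20.1, 16.4 and 12.5 TPM on the 3 days. From BF-2d to BF-4d the endothelial sum (26.4 to 53.5 TPM, then 53.6 to 86.4 TPM) also rose without overlap. So did the blood sum (1.86 to 2.52 TPM, then 2.81 to 6.37 TPM). Both overlapped between BF-0d and BF-2d. The part of muscle, endothelial or blood cells in the values of let-7f-5p was not tested.

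From day 0 to day 2 in BF, 10 of the 11 members had a negative log2 fold change, with let-7i-5p at 0.07 the exception, and their median was -0.39 against 0.01 for all entries. In the same step 5 members did not overlap, all lower in BF-2d, against 16.7% of entries that lay lower and 29.8% in either direction. From day 2 to day 4 the median of the members was 0.17 against 0.13 for all entries, and 4 members did not overlap against 34.9%. In this step let-7i-5p went from 51078, 46631 and 41473 TPM to 60388, 53367 and 61555 TPM, with no overlap (log2 0.34, SE 0.12, adjusted p = 0.101). No member was a DE-miRNA in BF-4d vs. BF-8d by limma, edgeR or DESeq2, where 3.02% of entries were by limma, and 1 member had an unadjusted p under 0.05. In that step 3 members did not overlap, against 26.5% of entries.

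Over the whole course in BF, let-7c and let-7d-3p fell. The level of let-7c went from 2264, 2261 and 1895 TPM in BF-0d to 1160, 1355 and 1497 TPM in BF-8d, and the groups lay apart (log2 -0.68, SE 0.19, adjusted p = 0.00700). That of let-7d-3p went from 73.2, 87.1 and 65.9 TPM to 50.3, 53.7 and 44.8 TPM, also apart (log2 -0.59, SE 0.20, adjusted p = 0.0249). These 2 of 11 compare with 42.8% of entries called between BF-0d and BF-8d, 14.9% in the downward direction. The 2 members that did not overlap compare with 53.7%, 20.9% in the downward direction. With median-of-ratios scaling the values were -0.86 and -0.77, both called, and let-7f-3p passed as well (-0.68, adjusted p = 0.0188), against 43.0% of entries. Without BF-8d replicate 1, let-7c changed by -0.58, under the 1.5-fold limit although its adjusted p was 0.0142. The call of let-7d-3p was lost without BF-0d replicate 1 or 2 or BF-8d replicate 3 (adjusted p = 0.0549, 0.0897 and 0.0732). In the same comparison let-7a went from 2802, 2735 and 2303 TPM to 1849, 2454 and 2656 TPM, with overlap (log2 -0.18, adjusted p = 0.468). With ssc-miR-21-5p left out of the total, however, let-7a was called lower too (-0.77, adjusted p = 0.0120), as were let-7d-5p, let-7f-3p, let-7g and miR-98, so that 7 of 11 members were called lower, against 45.5% of entries called in either direction. In that setting the median log2 fold change of all entries was -0.37, against 0.15 in TPM. The median of the members was -0.77, against -0.18 in TPM. The share of ssc-miR-21-5p was 54.2% to 59.1% in BF-0d and 27.9% to 40.3% in BF-8d, and its part in these values was not tested. Between the same groups the summed muscle miRNAs went from 819 to 1013 TPM to 1324 to 2362 TPM, with ssc-miR-1, ssc-miR-133a-3p and ssc-miR-133b higher and ssc-miR-499-5p lower (18.4 to 23.2 TPM, then 8.57 to 14.4 TPM), each without overlap. Of the blood list, ssc-miR-486 went from 0.237 to 0.464 TPM to 1.77 to 2.88 TPM, and ssc-miR-451 overlapped between the days with means of 0.555 and 0.277 TPM. Their part in the falls of let-7c and let-7d-3p was not tested.

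In IMF few members moved. No member was a DE-miRNA in any of the 3 steps between neighbouring days by limma, edgeR or DESeq2, where limma called 0.00%, 0.00% and 13.0% of all entries. At an unadjusted p under 0.05 there was 1 member (let-7i-3p, day 0 to day 2), then 0 and 0. Group means of let-7a ran from 1235 ± 175 TPM (IMF-4d) to 1535 ± 370 TPM (IMF-8d), those of let-7c from 951 ± 132 TPM (IMF-0d) to 1175 ± 221 TPM (IMF-8d), and those of let-7f-5p from 4102 ± 508 TPM (IMF-2d) to 4529 ± 915 TPM (IMF-0d). The means of let-7i-5p were 52309 ± 9077, 57198 ± 1918, 62704 ± 6585 and 68979 ± 20222 TPM on days 0, 2, 4 and 8, and between day 0 and day 8 the test was not passed (log2 0.38, SE 0.25, adjusted p = 0.275). Over the neighbouring days, 1, 1 and 0 members did not overlap, against 19.8%, 22.1% and 38.4% of entries.

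In TPM the one member that was a DE-miRNA between days in IMF was let-7i-3p, the opposite arm of the dominant member. It rose from 1.501, 2.08 and 2.08 TPM in IMF-0d to 5.95, 3.94 and 4.00 TPM in IMF-8d, with no overlap (log2 0.95, SE 0.18, adjusted p = 0.00890). These values rest on 16, 19 and 20 reads and on 78, 59 and 52 reads. This 1 of 11 compares with 19.8% of entries higher in IMF-8d and 30.5% in either direction. The call was lost with no filter (adjusted p = 0.0562) and once ssc-miR-21-5p was taken out of the total (0.73, adjusted p = 0.0531), where let-7d-3p was called lower instead (-0.77, adjusted p = 0.00612), against 29.4% of entries called. In the same libraries let-7i-5p overlapped between the days. Of the blood list, ssc-miR-486 was also higher in IMF-8d (5.95 to 6.63 TPM) than in IMF-0d (0.375 to 1.14 TPM). The other 6 of the list did not exceed 0.915 TPM in these libraries, with ssc-miR-144, ssc-miR-150 and ssc-miR-223 at 0 in all of them, and the part of blood cells in the rise was not tested. Of the muscle miRNAs, ssc-miR-133a-3p (10.9 to 18.6 TPM, then 24 to 28.3 TPM) and ssc-miR-133b (0 to 0.437 TPM, then 0.615 to 0.802 TPM) were higher in IMF-8d without overlap, and ssc-miR-133a-5p was lower (0.727 to 0.984 TPM, then 0.201 to 0.384 TPM). The muscle sum overlapped between the days, and its part was not tested either. In BF-0d let-7i-3p stood at 3.35, 2.12 and 3.20 TPM, above each IMF-0d library. In all, 3 members did not overlap between IMF-0d and IMF-8d, against 48.8% of entries. Besides let-7i-3p these were let-7d-3p, lower in IMF-8d, and let-7e, higher in IMF-8d (773 to 908 TPM) than in IMF-0d (516 to 770 TPM).

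Whether a time course differs between the sources was tested in one fit of the 24 libraries, as the interaction of source with day. Only let-7c passed among the 11 members (limma moderated F test, adjusted p = 0.0327), against 31.6% of all tested entries. Its level fell in BF and did not in IMF, where it was 1090, 828 and 933 TPM on day 0 and 1425, 1094 and 1006 TPM on day 8. From day 0 to day 8 the change in IMF exceeded that in BF by 0.98 on the log2 scale (SE 0.27, adjusted p = 0.00979), a contrast that 20.7% of entries passed. The interaction was lost without the 8 libraries numbered 1 (adjusted p = 0.293) or the 8 numbered 2 (adjusted p = 0.334). For let-7i-3p the same contrast was 1.05 (SE 0.39, adjusted p = 0.0545) and for let-7f-5p from day 2 to day 4 it was -0.73 (SE 0.26, adjusted p = 0.0870), neither past the threshold.

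The miRNAs that share a locus with a let-7 gene were looked at next, since precursors in one transcript can be processed together. These are miR-99a (both arms), beside let-7c, miR-99b and miR-125a, beside let-7e, and miR-100 and miR-125b, beside let-7a at MIRLET7A-1. Between BF-0d and BF-8d, 4 of these 6 entries were lower and 1 was higher, against 14.9% and 27.9% of all tested entries. With ssc-miR-21-5p left out of the total, 5 were lower and none was higher, against 45.5% called in either direction. The level of miR-99a-5p fell from 5045, 3165 and 4254 TPM to 1091, 1279 and 1140 TPM, a wide gap (log2 -1.80, SE 0.20, adjusted p = 1.72e-06). It moved in the direction of let-7c but further, so the ratio of let-7c to miR-99a-5p went from 0.536 ± 0.154 in BF-0d to 1.15 ± 0.146 in BF-8d. In IMF this ratio was 0.527 ± 0.0988 on day 0 and 0.740 ± 0.0487 on day 8. Like let-7c, miR-99a-5p was lower in IMF-0d (1840, 1440 and 2257 TPM) than in BF-0d (log2 -1.17, SE 0.24, adjusted p = 0.0164), and its time course also differed between the sources (interaction adjusted p = 0.00153, and 0.0583 without the 8 libraries numbered 1).

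At the let-7e locus the entries moved apart. The level of ssc-miR-99b rose from 1483, 2138 and 1737 TPM in BF-0d to 4087, 3571 and 4050 TPM in BF-8d, with no overlap (log2 1.14, SE 0.19, adjusted p = 0.000157). With ssc-miR-21-5p left out of the total this became 0.55 (adjusted p = 0.0355), under the 1.5-fold limit. Over the same days let-7e was 774, 1030 and 782 TPM and then 880, 927 and 869 TPM, with overlap (log2 0.06, SE 0.19, adjusted p = 0.822). The ratio of let-7e to miR-99b was 0.484 ± 0.0361 in BF-0d and 0.230 ± 0.0258 in BF-8d, and in IMF it stood at 0.364 ± 0.0218 on day 0 and 0.356 ± 0.0676 on day 8. The third miRNA of the locus, ssc-miR-125a, did not pass (log2 -0.29, SE 0.22, adjusted p = 0.288), but was called lower with ssc-miR-21-5p left out of the total (-0.88, adjusted p = 0.0126). Of the entries at the MIRLET7A-1 locus, miR-125b and miR-100 fell in BF (log2 -0.95 and -0.70, adjusted p = 0.00087 and 0.00515), whereas let-7a, whose mature sequence has copies at other loci, did not pass. Copies of miR-125b and miR-100 at other loci are not given here, so their falls cannot be assigned to this locus. None of the 6 entries was a DE-miRNA between IMF-0d and IMF-8d by limma in TPM, against 30.5% of all tested entries. In that comparison ssc-miR-100 was called lower with ssc-miR-21-5p left out of the total (-0.83, adjusted p = 0.0327) and without IMF-8d replicate 1 (-0.59, adjusted p = 0.0282).

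**Figure D4:**
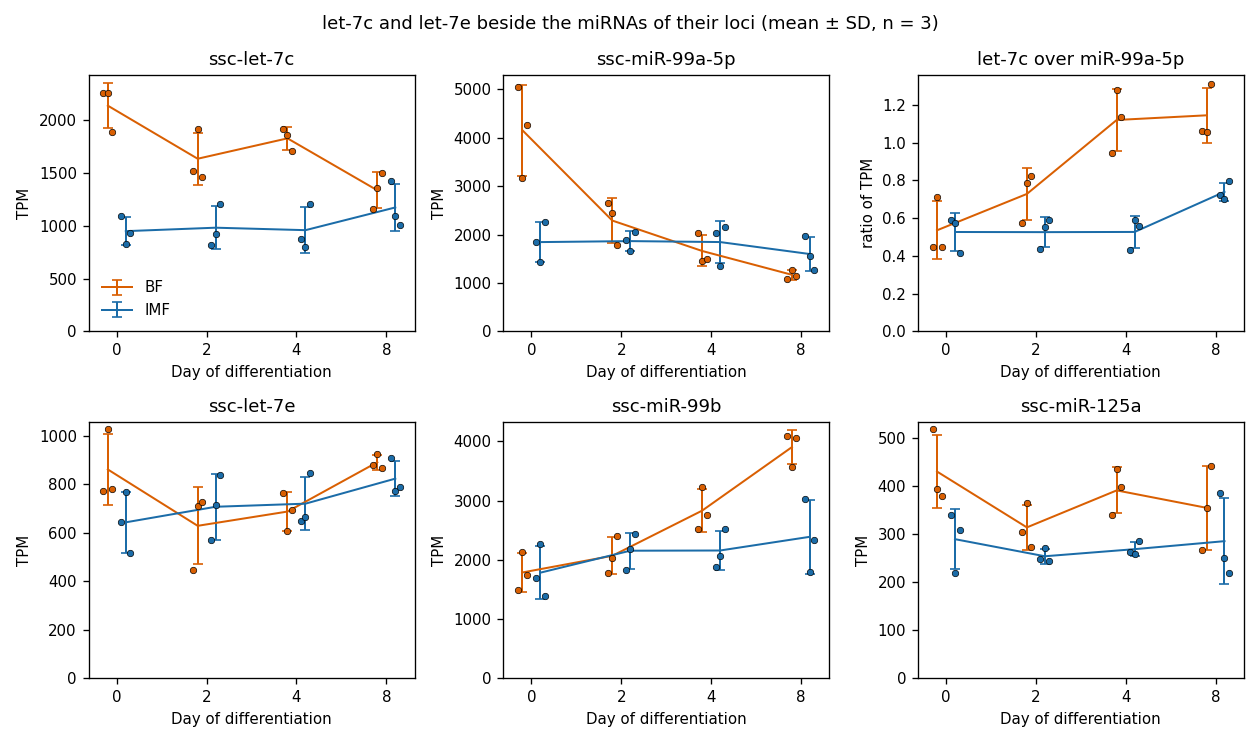
TPM of let-7c and miR-99a-5p with their ratio (upper row), and TPM of let-7e, miR-99b and miR-125a (lower row), by day in BF (orange) and IMF (blue), with each library as a point and mean ± SD (n = 3) on linear axes from 0. In BF, miR-99a-5p falls further than let-7c, so that their ratio goes from 0.536 to 1.15, and miR-99b rises while let-7e on day 8 lies near its level on day 0.

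The opposite arms did not follow the guide strands closely. The ratio of let-7d-3p to let-7d-5p, which come from the same hairpin, was 0.359 ± 0.0607 in BF-0d, 0.499 ± 0.0970 in BF-2d, 0.289 ± 0.0733 in BF-4d and 0.275 ± 0.0549 in BF-8d. In IMF it was 0.479 ± 0.111, 0.564 ± 0.120, 0.532 ± 0.116 and 0.443 ± 0.115 on the same days. The BF and IMF libraries lay apart on days 4 and 8, where IMF was higher, and overlapped on days 0 and 2. The level of let-7d-3p itself overlapped between the sources on each day. It was 71.3, 66.4 and 62.8 TPM in IMF-2d against 40.1, 55.2 and 60.5 TPM in IMF-4d, apart but not past the test (log2 -0.38, SE 0.17, adjusted p = 0.337). From IMF-0d to IMF-8d it went from 58.5, 68.1 and 64.0 TPM to 51.6, 49.3 and 49.4 TPM, likewise (log2 -0.33, SE 0.11, adjusted p = 0.0516).

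Across the 8 group means, which share their libraries' scale, the members split by pattern. The correlation of log2(TPM + 1) was 0.93 between let-7a and let-7c and 0.92 between let-7a and each of let-7d-5p and let-7f-5p. For let-7i-5p it was negative with 6 of the other 7 guide strands, from -0.34 with let-7f-5p to -0.78 with miR-98, and 0.04 with let-7e. Among the 214 entries outside the family with a mean of at least 10 TPM, the patterns most like let-7a were those of ssc-miR-103 (r = 0.977), ssc-miR-148b-5p (0.957) and ssc-miR-126-3p (0.956). Those most like let-7c were ssc-miR-2320-5p (0.949), ssc-miR-107 (0.923) and ssc-miR-450c-5p (0.921), and those most like let-7i-5p were ssc-miR-708-3p (0.888), ssc-miR-136-3p (0.831) and ssc-miR-493-5p (0.830).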

How the data were processed

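Small RNA was sequenced by the authors as 50-nt single-end reads, aligned with Bowtie (perfect matches, Sscrofa11.1), matched to miRBase by BLAST and tested with DESeq2. Versions used for the miRNA data are not given in the sources used here. The deposited values are in RPM, which the authors name TPM: every library has the same sum over the 1587 entries. All values were whole multiples of 1 read (within 0.01 read), so reads were recovered for edgeR 4.0.16 and DESeq2 1.42.0.

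Log2(TPM + 1) of the 2 groups compared was fitted with limma 3.58.1 (eBayes with trend, R 4.3.3) over the 430 entries whose mean reached 1 TPM, in 12 comparisons. The interaction was fitted over 24 libraries. Fold changes understate those of low entries. Depth varied 4954845 to 16863560 reads, no molecular identifiers are named, and a count of 3 reads was taken as the floor. An exact permutation test of 3 against 3 cannot go below p = 0.1. Replicate numbers were checked for pairing from the data alone: in BF-0d vs. IMF-0d all 3 same-numbered pairs of libraries deviated together (r = 0.188, 0.509 and 0.205), in none of the other 11 comparisons did all 3. Family level and ratios were not tested. Tests were tried on simulated data. Precursors came from RefSeq, in which all 11 members matched. Named were all members, the miRNAs of their loci and the 3 entries most like let-7a, let-7c and let-7i-5p. The members and lists were chosen with earlier results of these data known. Python 3.11.15, NumPy 2.4.6, pandas 2.3.3 and Matplotlib 3.10.9 were used.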

Additional observations from a re-analysis of the deposited data

Results flagged for a closer look

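Results are listed here because their time course differed between BF and IMF by a test of the difference itself. Among the members this was let-7c (limma interaction F test, adjusted p = 0.0327), and its change from day 0 to day 8 also differed between the sources (adjusted p = 0.00979). Of the miRNAs at let-7 loci, ssc-miR-99a-5p (adjusted p = 0.00153), ssc-miR-99a-3p (adjusted p = 0.00025) and ssc-miR-125b (adjusted p = 0.0285) differed as well. The interaction was passed by 31.6% of all tested entries. It was lost for let-7c without the libraries numbered 1 or 2 (adjusted p = 0.293 and 0.334) and with no filter (0.0809), for ssc-miR-125b without those of any 1 number (0.342, 0.129 and 0.0531) and with no filter (0.0748), and for ssc-miR-99a-5p without those numbered 1 (0.0583). The arm ssc-miR-99a-3p held 0.454 to 5.75 TPM and so rests on few reads.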

How the results depend on the processing

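Of the 17 calls of a member in a comparison, all kept their direction under every alternative run and 3 were called under all 15: let-7a and let-7c on day 0 and let-7a on day 4, BF against IMF. A further 15 pairs of member and comparison passed only under an alternative. The cause of the changes below was not tested, except that leaving out a library leaves fewer samples and no filter tests more entries. With no filter the member counts were 0 for BF-0d vs. BF-2d, BF-2d vs. BF-4d, IMF-0d vs. IMF-8d, BF-2d vs. IMF-2d, BF-8d vs. IMF-8d and the interaction, 1 for BF-0d vs. BF-8d, and 2 for BF-0d vs. IMF-0d and BF-4d vs. IMF-4d. On day 8 between BF and IMF, the 3 calls lower in IMF were lost with median-of-ratios scaling, DESeq2 and edgeR. Other members were called higher there, 2 with median-of-ratios scaling and DESeq2 and 3 by edgeR. On day 2 the one call lower (let-7c) was lost with median-of-ratios scaling and edgeR, which called a different member (let-7i-3p) higher. Median-of-ratios scaling gave 0 for BF-0d vs. BF-2d and BF-2d vs. BF-4d, 2 for BF-0d vs. IMF-0d and 1 for BF-4d vs. IMF-4d. By edgeR the counts were 0 for BF-2d vs. BF-4d, 2 for BF-0d vs. IMF-0d and 1 for BF-4d vs. IMF-4d, and by DESeq2 they were 2, 2 and 1. Without ssc-miR-21-5p in the total they were 1 for BF-4d vs. BF-8d, 7 for BF-0d vs. BF-8d and 0 for BF-8d vs. IMF-8d. A mean of at least 10 TPM left out let-7i-3p, so IMF-0d vs. IMF-8d had 0, and gave 2 for BF-2d vs. IMF-2d, as did 1 fit of all 24 libraries, while a pseudocount of 0.1 gave 0 there. Of 36 same-numbered pairs of libraries, 11 correlated above 0.1 (range -0.329 to 0.509), all 3 of them in 1 of the 12 comparisons, BF-0d vs. IMF-0d, and 7 of 24 libraries correlated best with their own number. With the replicate number as a block BF-0d vs. IMF-0d kept its 4 calls, and the counts were 0 for BF-0d vs. BF-2d, 1 for BF-0d vs. BF-8d and 0 for BF-2d vs. IMF-2d. Leaving out 1 library at a time gave 0 to 1 for BF-0d vs. BF-2d, BF-2d vs. BF-4d, BF-2d vs. IMF-2d, 1 to 3 for BF-0d vs. BF-8d, 2 to 3 for BF-0d vs. IMF-0d, 4 to 4 for BF-4d vs. IMF-4d and 0 to 6 for BF-8d vs. IMF-8d. Leaving out the 8 libraries of 1 replicate number gave 0 to 1 for the interaction. Without BF-8d replicate 1, let-7g, not called, turned from -0.14 to 0.15 between BF-0d and BF-8d (range without 1 library, -0.32 to 0.15). Over the 12 comparisons, these settings called 0.00% to 9.77% of all entries (no filter), 0.233% to 43.0% (median-of-ratios), 0.233% to 43.7% (edgeR), 0.477% to 41.9% (DESeq2), 0.00% to 45.5% (without ssc-miR-21-5p), 0.446% to 50.9% (at least 10 TPM) and 0.00% to 41.2% (replicate block). Among the 11 members depth limits let-7i-3p most, at 7 to 78 reads.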
